A study of Mus musculus with 49 samples.

Results

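Expression of 8 transcription factors of urothelial differentiation was followed in mouse bladders: Grhl3, Pparg, Foxa1, Gata3, Elf3, Klf5, Ehf and Sox15. These members were chosen by name, with earlier results of these data known. Shares of members called, set beside those of all genes, are therefore not a test of the set. Each member was read from 1 probe set, the one of highest mean among its single-gene probe sets. The 8 genes carried 13 such probe sets, 4 for Ehf, 3 for Klf5 and 1 for each of the others. All 8 passed the filter on dim genes and stood among 14618 tested genes, of 18193 that the array covers with single-gene probe sets. On GRCm38.p6 the genes span chr4:135541887-135573632 (Grhl3), chr6:115360879-115490404 (Pparg), chr12:57540628-57548029 (Foxa1), chr2:9857078-9887953 (Gata3), chr1:135253574-135258472 (Elf3), chr14:99298691-99313412 (Klf5), chr2:103263431-103303275 (Ehf) and chr11:69655037-69656727 (Sox15).

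The urothelium is the stratified lining of the bladder, with basal cells below and large uroplakin-covered umbrella cells at the surface. Its transcription factors sit at different levels. Gata3, a zinc finger factor of the luminal layers, and Foxa1, a forkhead pioneer factor that opens chromatin, act broadly in luminal urothelium. Pparg, a nuclear receptor also known as the master regulator of adipocytes, drives urothelial cells toward the differentiated state. Elf3, an epithelial ETS factor, lies downstream of PPARG in human urothelial cells, and Ehf is its close ETS relative. Grhl3, a grainyhead-like factor, is needed in mice for terminal differentiation of umbrella cells. Klf5, a Krüppel-like zinc finger factor, is needed for formation of the urothelium in mice. Sox15 is a SOX-family factor best known in mice for muscle regeneration.

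The bladders came from female C57Bl/J mice killed after 12 weeks, at an age of 155 days, or after 1 week, at an age of 76 days, of drinking water ad lib with arsenate, an inorganic arsenic salt. The 10 groups were the 5 doses of 0 (water alone), 0.5, 2, 10 and 50 ppm at 12 weeks and the same 5 doses at 1 week. There were 5 mice a group, and 4 at 0.5 ppm for 1 week. Each of the 49 Mouse430_2 arrays, which use 1 colour, carried the RNA of 1 whole bladder from 1 mouse. Levels are log2(intensity + 16), and differences are in the same log2 units ± SE. A gene is called when its limma p, adjusted by the Benjamini-Hochberg method over all 14618 genes, is under 0.05. In a whole organ, fewer cells of a type and less RNA per cell cannot be told apart. Animal labels begin with a number that is the same within each group; the labels do not say what it stands for, and it cannot be told apart from dose. Harvest cannot be told apart from age.

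Markers of superficial urothelium, among them uroplakins, were present in all groups, with list means of 13.53 to 13.84 at 12 weeks and 13.65 to 13.88 at 1 week. Replicate 1 of the 0.5 ppm group at 12 weeks and replicate 2 of the 50 ppm group at 1 week stood apart. Their median correlations with the arrays of their group were 0.938 and 0.955, against 0.965 to 0.987 for the others. RNA integrity numbers ran from 7.2 to 9.8 and were missing for 2 mice on 10 ppm for 1 week. The number was 7.2 in replicates 3, 4 and 5 of 2 ppm at 1 week, against 9.7 and 9.5 in replicates 1 and 2. The mean of the 8 members was 11.105, 10.89 and 11.026 in the former and 11.408 and 11.311 in the latter. RNA quality thus splits the 2 ppm group at 1 week. Liver markers, which a bladder should lack, averaged 6.19 to 6.48 in the 12-week groups and 6.53 to 8.82 in the 1-week groups. At 1 week they were unequal between doses, at 8.82 in water, 8.175 at 0.5 ppm, 8.51 at 2 ppm, 7.46 at 10 ppm and 6.53 at 50 ppm. Among them Fga (-2.73 ± 0.49) and Plg (-2.65 ± 0.48) were called lower at 50 ppm than in water. How this bears on the members at 1 week was not tested.

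RefSeq promoter windows on GRCm38.p6 were at hand for 6 of the 8 members, in 8 windows. The windows of Sox15 and Grhl3 are shown because the response of these genes to 50 ppm differed between the harvests, as described further on. Each run is the 250 bases before the start of the gene, 5′ to 3′ on the gene's own strand, at chr11:69654787-69655036 (plus strand) for Sox15 and chr4:135573633-135573882 (minus strand) for Grhl3. Capitals mark matches to the motifs searched.
Sox15: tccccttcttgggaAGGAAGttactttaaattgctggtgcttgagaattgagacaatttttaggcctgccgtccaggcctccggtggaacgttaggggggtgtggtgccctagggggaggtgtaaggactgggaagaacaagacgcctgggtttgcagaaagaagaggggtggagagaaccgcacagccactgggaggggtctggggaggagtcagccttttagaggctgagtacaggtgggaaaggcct
Grhl3: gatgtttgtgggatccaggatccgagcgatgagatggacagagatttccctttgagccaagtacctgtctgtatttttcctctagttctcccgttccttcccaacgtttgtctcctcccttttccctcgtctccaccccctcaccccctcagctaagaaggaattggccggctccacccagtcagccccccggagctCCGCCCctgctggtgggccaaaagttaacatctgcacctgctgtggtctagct

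Both strands were searched for the GC box GGGCGG of KLF and SP factors, the GATA motif AGATAA, the ETS motifs CCGGAA and AGGAAG, the forkhead motif TGTTTNC, the SOX motif AACAAT, the grainyhead motif AACCGGTT and the PPAR-RXR motif of AGGTCA, any base and AGGTCA again. The Sox15 window held 1 AGGAAG, starting 236 bases before the gene, a motif found in 29.5% of all 32851 promoter windows of this length. In the Grhl3 window a GC box lay on the opposite strand, 53 bases before the start, and 32.7% of windows hold one. No marked matches overlapped in these runs. Among the windows not printed, that of Foxa1 held 3 GC boxes and 1 forkhead motif (17.8% of windows), and that of Gata3 held 2 GC boxes and 1 CCGGAA (12.0% of windows). The 3 windows of Pparg held 1, 2 and 0 GC boxes, and the Elf3 window held none of the motifs. The windows of Foxa1, Gata3 and Pparg lie within the gene spans given above, not ahead of them. GATA, SOX, grainyhead and PPAR-RXR motifs, found in 9.99%, 9.42%, 0.116% and 0.0335% of windows, were in none of the 8. These are matches of letters only.

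At 12 weeks, Sox15 was lower in arsenate-drinking mice at 0.5 and 50 ppm than in water-drinking mice. These were 2 of 32 member-by-dose tests at this harvest. Over all genes 0.527% were called at 0.5 ppm, 0.0137% at 2 ppm, 0.335% at 10 ppm and 4.06% at 50 ppm. The 5 mice on 0.5 ppm had Sox15 levels of 9.03, 9.49, 9.47, 8.79 and 9.29, against 9.76, 9.76, 9.96, 9.78 and 10.03 in water. Every mouse on 0.5 ppm lay below every water mouse. At this dose 2 of 8 members, Sox15 and Foxa1, did not overlap with water, as 3.95% of all genes did not. The difference was -0.64 ± 0.12, or 0.64 times the water signal (limma adjusted p = 0.0261).

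Sox15 in the 50 ppm mice was 9.48, 9.44, 9.39, 9.29 and 9.62, again below all 5 water mice, a difference of -0.415 ± 0.12 (limma adjusted p = 0.0479). At 2 ppm the mean was 9.44 ± 0.14 against 9.86 ± 0.13 in water (SD, n = 5 each). The groups did not overlap there either, for Sox15 alone among the 8 members and for 2.1% of all genes, yet the difference of -0.42 ± 0.12 was not called (limma adjusted p = 0.426). The 10 ppm mice, at 9.74 ± 0.17 (SD, n = 5), overlapped with water. The fall therefore did not follow the order of the doses, and the slope over dose ranks was -0.03 ± 0.04 (limma adjusted p = 0.691).

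Both Sox15 calls were close to the threshold. For 0.5 ppm the limma adjusted p came to 0.089, 0.0798 and 0.063 without replicate 1, 4 or 5 of that group, and to 0.103 and 0.0736 without water replicate 3 or 5, with differences from -0.71 to -0.54 over all 25 omissions. Omitting any 1 of 15 of the 25 arrays lost the 50 ppm call, with adjusted p up to 0.123. They were water replicates 2 to 5, replicate 5 of 0.5 ppm, replicates 2, 3 and 5 of 2 ppm, 1, 3 and 5 of 10 ppm and 1 to 4 of 50 ppm. Epithelial genes lay lower in the same groups, with 1 of 15 called at 0.5 ppm and 2 of 15 at 50 ppm. At 0.5 ppm, 13 of 15 general epithelial genes and 12 of 13 superficial urothelium markers had lower means than in water, while 11 of 13 smooth muscle and 8 of 8 endothelial markers had higher ones. At 50 ppm, 12 of 15 epithelial genes had lower means, but 8 of 13 superficial urothelium markers had higher ones, with a median difference of 0.03. The epithelial panel averaged 11.40 ± 0.14 at 0.5 ppm and 11.43 ± 0.09 at 50 ppm, against 11.64 ± 0.13 in water (SD, n = 5 each). At 2 ppm, where Sox15 also lay below all water mice, the epithelial panel averaged 11.60 ± 0.12 (SD, n = 5), close to water. With that panel's mean as a covariate, the Sox15 difference at 0.5 ppm was -0.45 (limma adjusted p = 0.866), with a range of 0.00423 to 0.866 over the 16 alternatives. At 50 ppm it was -0.25 with the epithelial panel (limma adjusted p = 0.488) and -0.26 with smooth muscle markers (adjusted p = 0.536) as a covariate, and 8 of the 16 alternatives lost the call, with adjusted p from 0.0293 to 0.542.

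**Figure D1:**
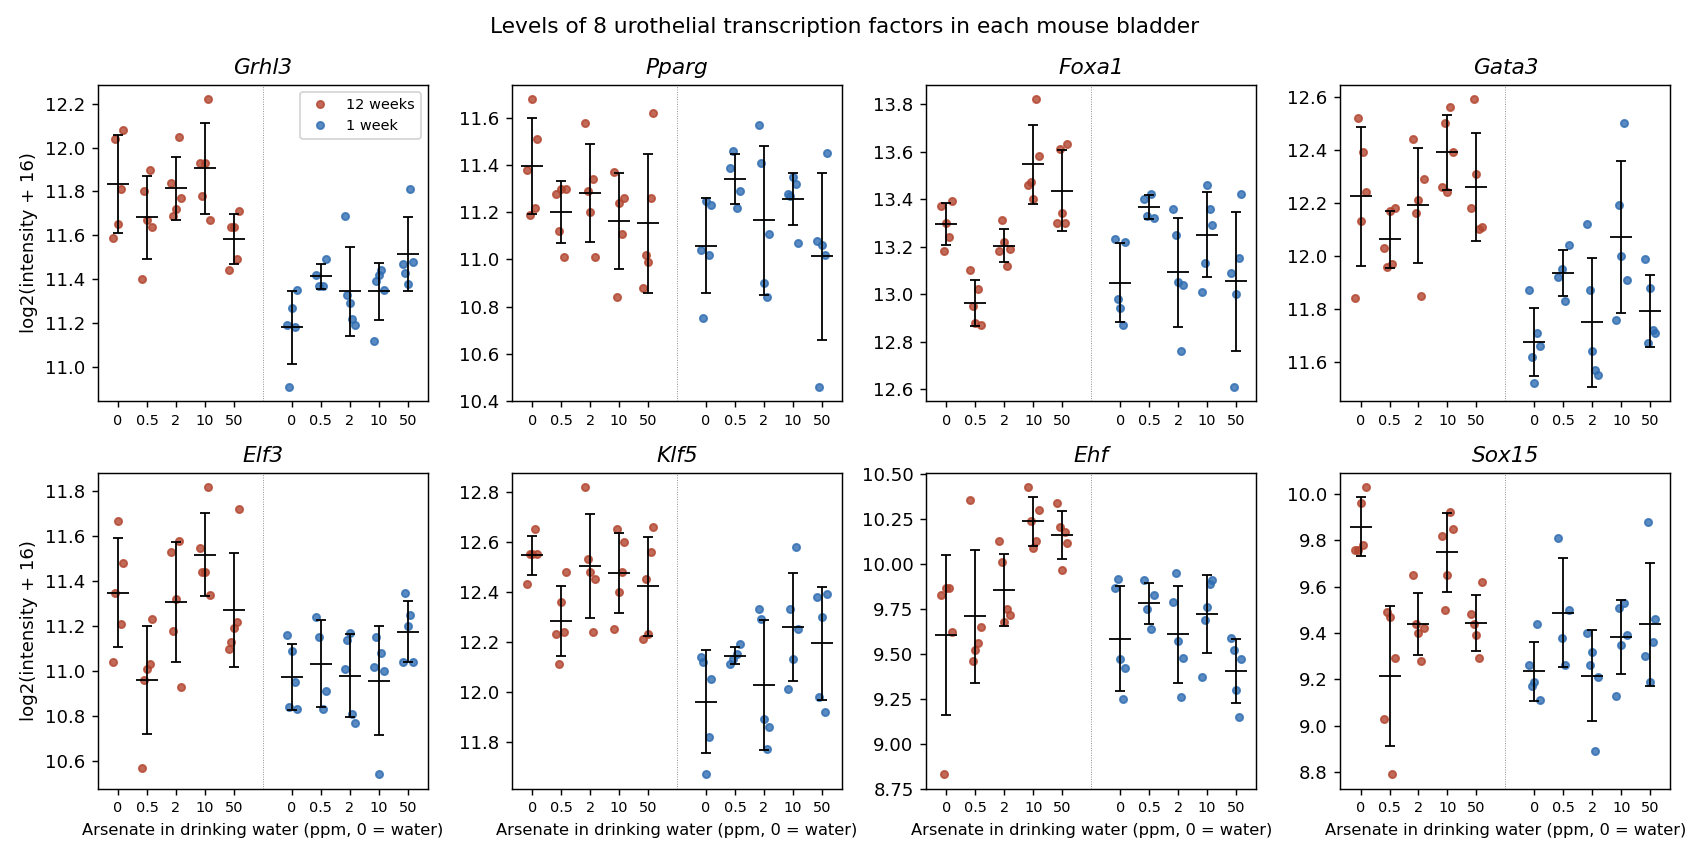
Level of each member, as log2(intensity + 16), in every bladder, by arsenate dose in ppm (0 is water), with the 12-week harvest in the left block and the 1-week harvest in the right block of each panel. Each point is a mouse, and bars give the group mean ± SD. Sox15 at 12 weeks is below all water mice at 0.5, 2 and 50 ppm, Foxa1 is low at 0.5 ppm and high at 10 ppm, and Ehf is highest at 10 and 50 ppm.

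Foxa1 differed among the 5 dose groups at 12 weeks, in both directions. Levels were 13.1, 12.95, 12.88, 13.02 and 12.87 at 0.5 ppm, and 13.46, 13.47, 13.4, 13.82 and 13.58 at 10 ppm, against 13.37, 13.18, 13.3, 13.24 and 13.39 in water. The mice on 0.5 ppm all lay below the water mice, and those on 10 ppm all lay above them. Neither difference was called alone: it was -0.33 ± 0.08 at 0.5 ppm (limma adjusted p = 0.0548) and 0.25 ± 0.08 at 10 ppm (limma adjusted p = 0.147). The 50 ppm group averaged 13.43 ± 0.17 and the 2 ppm group 13.20 ± 0.07, both overlapping with water at 13.30 ± 0.09 (SD, n = 5 each). The F test over all doses called Foxa1 (limma adjusted p = 0.00114), and also Sox15 (0.00971) and Ehf (0.0494). These were 3 of 8 members, where 4.95% of all genes were called. The Foxa1 call held without each of the 25 arrays in turn, with adjusted p from 0.000791 to 0.00671, and so did that of Sox15. Omitting any 1 of 21 of the 25 arrays lost the Ehf call, which held without replicate 1 of 0.5 ppm or water replicate 1, 2 or 4, with adjusted p from 0.00679 to 0.0824 over all 25.

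Ehf rose with dose at 12 weeks. Its levels were 10.43, 10.24, 10.09, 10.13 and 10.3 at 10 ppm, and 10.34, 10.21, 9.97, 10.18 and 10.12 at 50 ppm, against 9.83, 8.83, 9.87, 9.87 and 9.62 in water. All 10 of these treated mice lay above all water mice. Groups did not overlap for 2 of 8 members at 10 ppm, Ehf and Foxa1, and for 2 of 8 at 50 ppm, Ehf and Sox15, where 3.2% and 5.85% of all genes did not overlap. Group means ran from 9.60 ± 0.45 in water through 9.71 ± 0.37 at 0.5 ppm, 9.86 ± 0.20 at 2 ppm and 10.24 ± 0.14 at 10 ppm to 10.16 ± 0.14 at 50 ppm (SD, n = 5 each). The slope was 0.165 ± 0.04 per dose rank (limma adjusted p = 0.014). It was the only called slope among the 8 members, and 5.27% of all genes had one. The single-dose differences of 0.63 ± 0.17 at 10 ppm and 0.56 ± 0.17 at 50 ppm were not called (limma adjusted p = 0.0774 and 0.0538).

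The low water array, replicate 2 at 8.83, carried part of this size. Without it the slope was 0.13 (limma adjusted p = 0.0382), and the differences at 10 and 50 ppm were 0.44 and 0.36. Poly-A spike transcripts, added to the RNA before labelling, had lower means in the same treated groups, 10.81 in water, 10.43 at 0.5 ppm, 10.33 at 2 ppm, 9.76 at 10 ppm and 9.95 at 50 ppm. With the spike level as a covariate, the Ehf slope was 0.036 (limma adjusted p = 0.884), in a range of 0.00181 to 0.884 over the 18 alternatives.

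The other probe sets of Ehf did not all follow. Probe set 1419475_a_at had a slope of 0.273 ± 0.05 and differences of 1.02 ± 0.21 at 10 ppm and 0.99 ± 0.21 at 50 ppm, all called with limma over probe sets (adjusted p = 0.00422, 0.0245 and 0.0176). Probe set 1419474_a_at had a slope of 0.09 ± 0.05 (adjusted p = 0.329), with differences of 0.425 ± 0.225 at 10 ppm (adjusted p = 0.344) and 0.09 ± 0.225 at 50 ppm (adjusted p = 0.84). The dimmest one, 1447760_x_at, averaged 4.97 near the scale's floor of 4 and did not pass the filter. A second probe set of Klf5, 1451739_at, also sloped upward at 12 weeks (0.15 ± 0.04, limma adjusted p over probe sets = 0.0449), whereas the brightest Klf5 probe set had a slope of -0.01 ± 0.03.

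**Figure D2:**
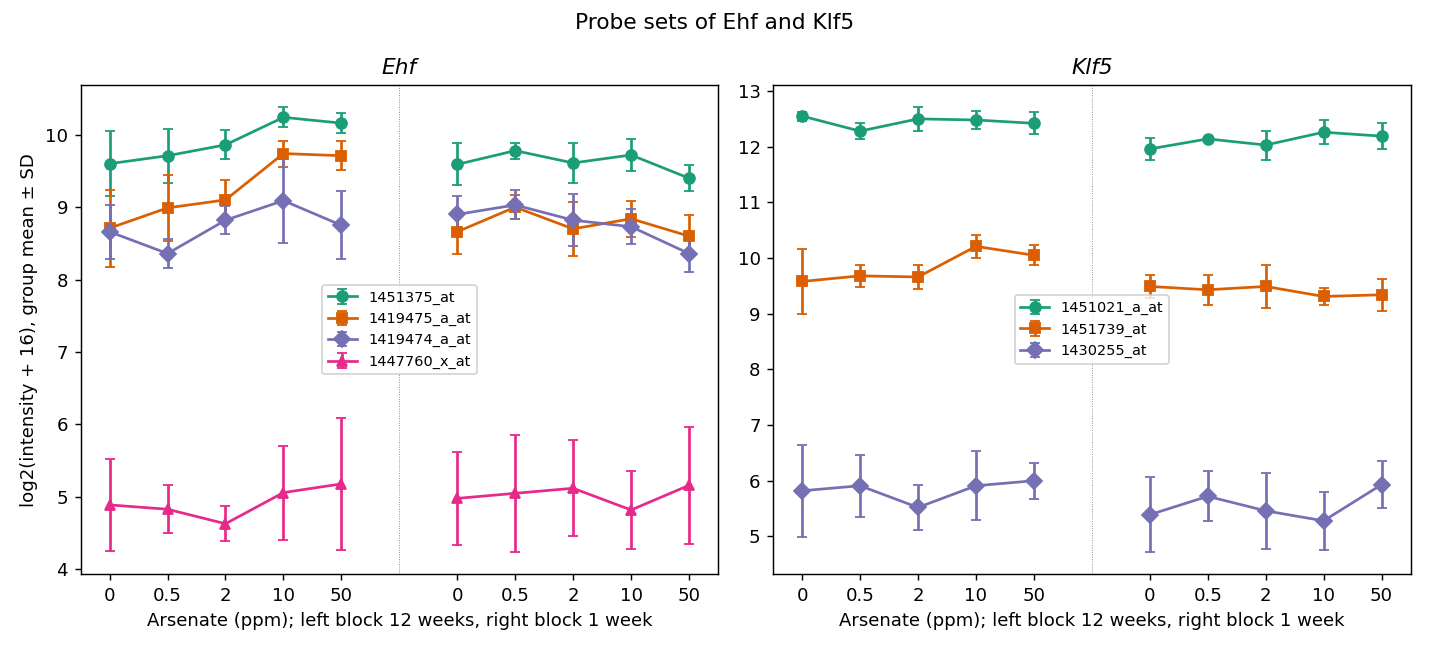
Group means ± SD of log2(intensity + 16) for the 4 probe sets of Ehf and the 3 of Klf5, by arsenate dose in ppm, with 12 weeks in the left block and 1 week in the right block. Among the Ehf probe sets, 1451375_at and 1419475_a_at are highest at 10 and 50 ppm at 12 weeks, and 1419474_a_at has a 50 ppm mean close to water. For Klf5 at 12 weeks, 1451739_at has its highest means at 10 ppm (10.21) and 50 ppm (10.05), against 9.58 in water, and the brighter 1451021_a_at has its highest mean in water.

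No other member was called for a dose at 12 weeks. Among these 5 members, the largest differences were those of Elf3 at 0.5 ppm, at -0.39 ± 0.14 (limma adjusted p = 0.134), and of Klf5 at 0.5 ppm, at -0.27 ± 0.10 (adjusted p = 0.154). Grhl3 averaged 11.58 ± 0.11 at 50 ppm, against 11.83 ± 0.22 in water (SD, n = 5 each), a difference of -0.25 ± 0.11 (limma adjusted p = 0.166). Pparg differences from water lay between -0.24 and -0.11 at all 4 doses, with limma adjusted p from 0.249 to 0.776. Gata3 differences lay between -0.16 and 0.17, with limma adjusted p from 0.459 to 0.936. At 0.5 ppm, 7 of 8 members had negative differences with a median of -0.23, where the median of all genes was 0.00.

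After 1 week no member was called at any dose (0 of 32 tests with limma), by the F test (0 of 8) or for a slope (0 of 8). The shares of all genes called were 0.0479%, 0%, 0.78% and 0.335% at 0.5, 2, 10 and 50 ppm, 1.77% by the F test and 0.267% for a slope. At an unadjusted limma p under 0.05, 3 members passed at 0.5 ppm, 0 at 2 ppm, 2 at 10 ppm and 1 at 50 ppm, all higher than in water. The highest of these were Gata3 at 10 ppm, 0.40 ± 0.12 (limma adjusted p = 0.084), and Grhl3 at 50 ppm, 0.33 ± 0.10 (adjusted p = 0.146). Grhl3 was 11.47, 11.43, 11.38, 11.81 and 11.48 at 50 ppm, against 11.19, 10.91, 11.27, 11.18 and 11.35 in water. It was the 1 member without overlap at 50 ppm, where 2.52% of all genes did not overlap. No member was without overlap at 2 or 10 ppm, against 1.61% and 5.71% of all genes. At 0.5 ppm all 8 members had positive differences, with a median of 0.24 against 0.01 over all genes. Foxa1 (0.32 ± 0.13) and Grhl3 (0.23 ± 0.105) did not overlap with water at that dose. They were 2 of 8 members, where 6.76% of all genes did not overlap. Superficial urothelium markers also had higher means there in 13 of 13 cases, and 11 of 13 smooth muscle markers had lower ones, with 0 called by limma and 5 and 2 at an unadjusted p under 0.05.

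**Figure D3:**
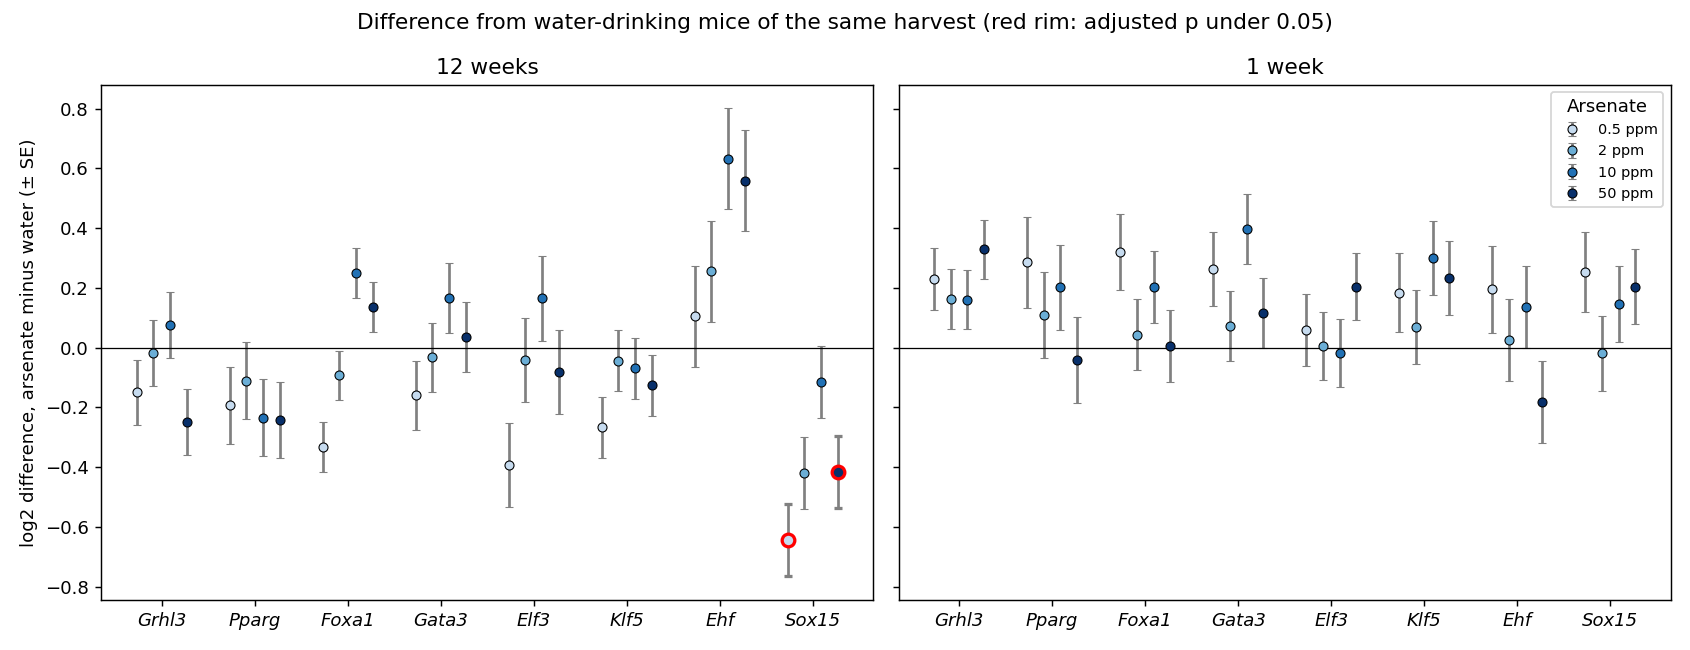
Arsenate minus water within each harvest, in log2 units, as points with SE bars, for 0.5, 2, 10 and 50 ppm (light to dark), at 12 weeks on the left and 1 week on the right. A red rim marks the called differences, which are those of Sox15 at 0.5 and 50 ppm at 12 weeks. At 0.5 ppm 7 of 8 members are below 0 at 12 weeks and all 8 are above 0 at 1 week.

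The response to a dose differed between the harvests for 5 of 32 member-by-dose tests of that difference, taken as the effect at 12 weeks minus the effect at 1 week. The share of all genes called was 4.61% at 0.5 ppm, 0% at 2 ppm, 1.38% at 10 ppm and 7.36% at 50 ppm. Sox15 at 0.5 ppm had the largest of these differences, -0.90 ± 0.18 (limma adjusted p = 0.00269), with effects of -0.64 at 12 weeks and 0.25 at 1 week. Foxa1 at 0.5 ppm followed with -0.65 ± 0.15 (adjusted p = 0.0109), from effects of -0.33 and 0.32. At 50 ppm the difference was -0.62 ± 0.17 for Sox15 (adjusted p = 0.0245) and -0.58 ± 0.15 for Grhl3 (adjusted p = 0.0159). Ehf at 50 ppm went the other way, with 0.74 ± 0.22 (adjusted p = 0.0349) from effects of 0.56 at 12 weeks and -0.18 at 1 week.

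At 0.5 ppm all 8 members had negative values of this difference, with a median of -0.45 against -0.02 over all genes. The water groups enter every one of these values, so the 4 doses are not independent. The calls of Foxa1 and Sox15 at 0.5 ppm and of Grhl3 at 50 ppm held without each of the 49 arrays in turn. Omitting 1 of 9 arrays lost that of Ehf. These were water replicate 2 (0.55, limma adjusted p = 0.108) and replicates 1, 2 and 4 of 50 ppm at 12 weeks, and water replicates 1 and 2 and replicates 2, 3 and 4 of 50 ppm at 1 week. Sox15 at 50 ppm was lost without replicate 4 of the 50 ppm group at 12 weeks (-0.58, adjusted p = 0.0524) or replicate 2 of that group at 1 week (-0.51, adjusted p = 0.0722), and without both arrays that stood apart (-0.51, adjusted p = 0.0581). With the epithelial panel mean as a covariate none of the 5 was called, though their sizes changed unequally. Foxa1 at 0.5 ppm was then -0.57 and Ehf at 50 ppm 0.76, close to the values above, while Sox15 was -0.565 at 0.5 ppm and -0.37 at 50 ppm and Grhl3 was -0.41 at 50 ppm (limma adjusted p from 0.118 to 0.257). The mean of that panel was 11.40 at 0.5 ppm and 11.64 in water at 12 weeks, and 11.49 at 0.5 ppm and 11.39 in water at 1 week. With the smooth muscle mean as a covariate instead, Foxa1 at 0.5 ppm was -0.50 and not called (limma adjusted p = 0.275), while Ehf stayed called. With the poly-A spike level, Ehf at 50 ppm was 0.55 and not called (limma adjusted p = 0.276), while Foxa1 stayed called.

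In water-drinking mice, most members were higher at 12 weeks than at 1 week. Grhl3, Sox15, Klf5, Gata3 and Elf3 rose, 5 of 8 members, and 0 fell, where 6.27% of all genes were called higher and 13.4% in either direction. Grhl3 was 11.59, 12.04, 11.65, 11.81 and 12.08 at 12 weeks, against 11.19, 10.91, 11.27, 11.18 and 11.35 at 1 week, a difference of 0.65 ± 0.11 (limma adjusted p = 4.56e-05). Sox15, with the 12-week levels given above, was 9.26, 9.17, 9.19, 9.44 and 9.11 at 1 week, a difference of 0.62 ± 0.12 (adjusted p = 0.000507). Klf5 was 12.43, 12.55, 12.55, 12.65 and 12.55 at 12 weeks, against 12.14, 12.12, 11.67, 11.82 and 12.05 at 1 week, a difference of 0.59 ± 0.12 (limma adjusted p = 0.000507). The harvests did not overlap for these 3 members, and 9.53% of all genes did not overlap.

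Gata3 averaged 12.22 ± 0.26 at 12 weeks and 11.68 ± 0.13 at 1 week (SD, n = 5 each), with overlap and a difference of 0.55 ± 0.12 (limma adjusted p = 0.00144). Elf3 differed by 0.38 ± 0.13 (adjusted p = 0.046), a call lost without any of 7 single arrays, water replicates 2, 3 and 5 at 12 weeks and 2, 3, 4 and 5 at 1 week, with adjusted p up to 0.172. Pparg (0.34 ± 0.14), Foxa1 (0.25 ± 0.105) and Ehf (0.02 ± 0.16) were not called (limma adjusted p = 0.0993, 0.108 and 0.96). The median over the members was 0.46, against 0.02 over all genes. The second Klf5 probe set, 1451739_at, gave 0.09 ± 0.18 in this comparison (limma adjusted p over probe sets = 0.794), so the probe sets of Klf5 disagreed.

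Other tissue components moved between the same groups. Of the general epithelial genes 7 of 15 were higher at 12 weeks, among them the splicing regulator Esrp2 (0.63 ± 0.12) and the junction protein Cdh1 (0.43 ± 0.11). Fibroblast markers fell in 8 of 9 cases, smooth muscle markers in 5 of 13, macrophage markers in 4 of 8 and liver markers in 8 of 9, with medians of -0.81, -0.36, -0.40 and -2.69. Only Snx31 (0.45 ± 0.09) was called among the 13 superficial urothelium markers, whose median was 0.06. With the smooth muscle mean as a covariate, Grhl3 (0.53) and Sox15 (0.53) passed the threshold, and Gata3 (0.44, limma adjusted p = 0.067), Klf5 (0.43, adjusted p = 0.0539) and Elf3 (0.17, adjusted p = 0.584) did not. With the epithelial panel mean instead, Grhl3 (0.49), Klf5 (0.44), Sox15 (0.38) and Gata3 (0.36) passed it, and Elf3 did not (0.065, limma adjusted p = 0.749).

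Averaged over the 5 dose groups of a harvest, 7 of 8 members were higher at 12 weeks, where 18.4% of all genes were called higher and 37.7% in either direction. Grhl3 (0.40 ± 0.05, limma adjusted p = 5.15e-09), Gata3 (0.38 ± 0.05, adjusted p = 2.73e-07) and Klf5 (0.33 ± 0.05, adjusted p = 2.4e-06) had the largest differences. Ehf (0.29 ± 0.07), Elf3 (0.26 ± 0.06), Sox15 (0.19 ± 0.06) and Foxa1 (0.13 ± 0.05) were also called, with limma adjusted p from 0.000561 to 0.0321. RNA integrity numbers averaged 9.44 to 9.64 in the 12-week groups and 8.16 to 9.38 in the 1-week groups. With that number as a covariate, Ehf (0.185, limma adjusted p = 0.135), Sox15 (0.14, adjusted p = 0.172) and Foxa1 (0.03, adjusted p = 0.729) were not called. Ehf was 0.11 with the poly-A spike level (adjusted p = 0.597), and Sox15 was 0.09 with the epithelial panel (adjusted p = 0.139). The probe sets of Ehf disagreed here. Probe set 1419475_a_at gave 0.49 ± 0.09 and 1419474_a_at gave -0.03 ± 0.09 (limma adjusted p over probe sets = 2.28e-05 and 0.802). By dose, the Ehf difference was 0.02 in water, -0.07 at 0.5 ppm, 0.25 at 2 ppm, 0.51 at 10 ppm and 0.76 at 50 ppm. Pparg was not called over this average (0.07 ± 0.06, limma adjusted p = 0.387). Grhl3, Gata3 and Klf5 had a higher mean at 12 weeks in all 5 doses, while at 0.5 ppm the differences of Foxa1, Sox15, Pparg, Elf3 and Ehf were -0.405, -0.27, -0.14, -0.07 and -0.07. The Foxa1 call was lost without both arrays that stood apart (0.10, limma adjusted p = 0.0775) and without any of 6 single arrays, with adjusted p from 0.05 to 0.0577. Those 6 arrays were replicate 4 at 10 ppm and replicate 5 at 50 ppm at 12 weeks, and water replicate 4, replicate 4 at 2 ppm, replicate 1 at 10 ppm and replicate 2 at 50 ppm at 1 week.

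**Figure D4:**
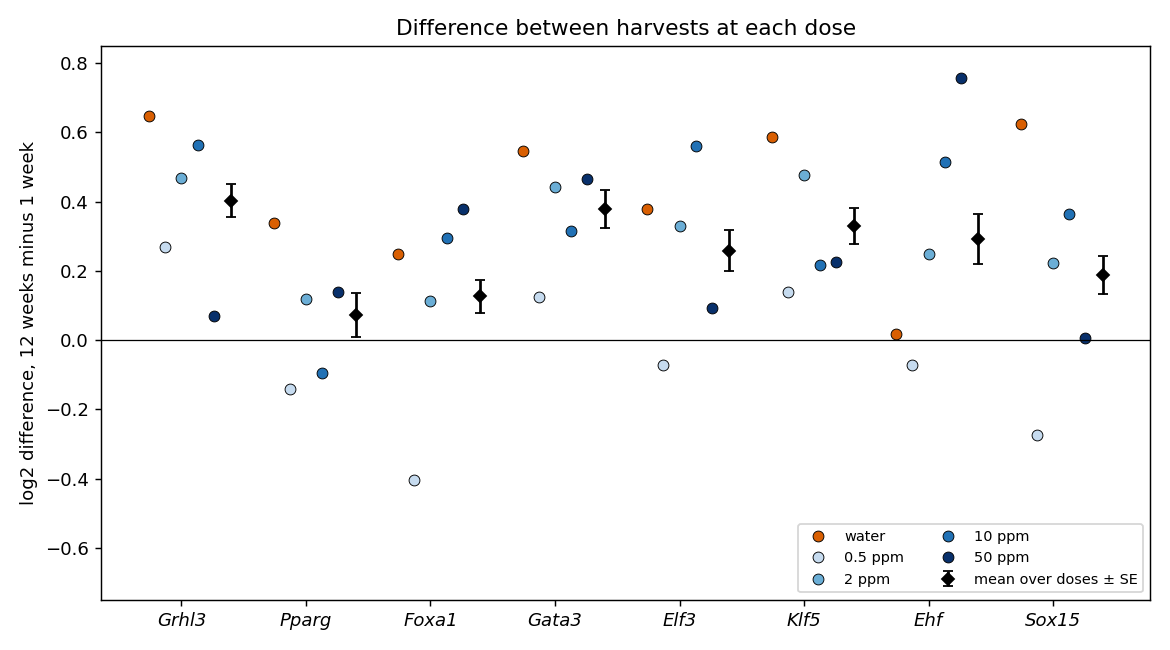
Difference of each member between harvests, 12 weeks minus 1 week, in log2 units, at each dose (circles, water to 50 ppm from left to right) and as the mean over the 5 doses with SE (diamonds). Grhl3, Gata3 and Klf5 are above 0 at every dose, and at 0.5 ppm Pparg, Foxa1, Elf3, Ehf and Sox15 are below 0.

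Over the same average, few markers of superficial urothelium were higher at 12 weeks. Of 13 such markers 1 was higher, Krt20 (0.14 ± 0.06, limma adjusted p = 0.0456), which is named here after its value was seen, and 4 were lower, the surface antigen Psca (-0.19 ± 0.04, adjusted p = 0.000701), the junction protein Cldn4 (-0.21 ± 0.07, adjusted p = 0.0087), the uroplakin Upk2 (-0.14 ± 0.05, adjusted p = 0.0127) and the keratin Krt8 (-0.12 ± 0.04, adjusted p = 0.029). Their median was -0.07, against 0.28 for the 8 members and 0.01 for all genes. Of the general epithelial panel 3 of 15 were higher, with a median of 0.09. Basal markers were higher in 5 of 9 cases, including the basal master factor Trp63 (0.39 ± 0.09, limma adjusted p = 0.000357) and the laminin subunit Lamb3 (0.33 ± 0.06, adjusted p = 6.82e-05). Smooth muscle markers were lower in 8 of 13, fibroblast markers in 8 of 9 and liver markers in 9 of 9. How far these shares of tissue bear on the members was not tested beyond the covariates named here.

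Further regulators of urothelial and stratified epithelium, a list of 30 chosen with earlier results of these data known, had 28 tested genes, of which 17 were higher and 2 lower at 12 weeks over all doses. Ovol1, a zinc finger repressor (0.51 ± 0.08, limma adjusted p = 1.42e-06), Grhl1, the paralog of Grhl3 (0.50 ± 0.08, adjusted p = 4.61e-06), the secreted signal Shh (0.20 ± 0.04, adjusted p = 0.000102) and the forkhead factor Foxq1 (0.32 ± 0.07, adjusted p = 0.000178) had the smallest p. In water alone 7 were higher and 1 lower, led by Ovol1 (0.86 ± 0.17) and Tbx2, a T-box factor (0.50 ± 0.115). At 0.5, 2, 10 and 50 ppm at 12 weeks limma called 0 of the 28 against water, with 8, 2, 7 and 11 at an unadjusted p under 0.05. At that harvest Sox4 had a rising slope over doses (0.11 ± 0.03, limma adjusted p = 0.0163) and Rarg, a retinoic acid receptor, a falling one (-0.095 ± 0.03, adjusted p = 0.0406). Of the grainyhead target genes, 4 of 13 were higher at 12 weeks in water, among them the junction genes Cdh1 (0.43 ± 0.11) and Dsg2 (0.56 ± 0.18), and 0 were lower. At 0.5 ppm at 12 weeks 1 of them was lower, the vesicle regulator Rab25 (-0.47 ± 0.10, limma adjusted p = 0.0398). Rab25, Cdh1, Esrp1, Epcam and St14 are listed both here and in the general epithelial panel. The epithelial gene called at 0.5 ppm and 12 weeks, given above, was this same Rab25.

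Within groups the members varied together only in part. Over the deviations of 49 arrays from their group means, the 28 pairs had a median Pearson r of 0.22, and 25 were positive. By Pearson's r 5 pairs passed a permutation test within groups adjusted over the 28, and 3 also passed by Spearman's rho. Gata3 and Klf5 were the closest pair (r = 0.643, rho = 0.633, permutation adjusted p = 0.00056 and 0.0014), at r = 0.567 without the 2 arrays farthest from the Gata3 median, 0.466 within 12 weeks and 0.794 within 1 week. Elf3 and Sox15 followed (r = 0.412, rho = 0.452, permutation adjusted p = 0.0374 and 0.0403), at 0.404 without 2 arrays, 0.375 within 12 weeks and 0.473 within 1 week. Klf5 and the brightest Ehf probe set had r = 0.386 and rho = 0.44 (permutation adjusted p = 0.0374 and 0.0429), at 0.345 without 2 arrays, but 0.096 within 12 weeks and 0.706 within 1 week.

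Pparg with Foxa1 (r = 0.537, rho = 0.331) and Foxa1 with Klf5 (r = 0.475, rho = 0.418) passed by r (permutation adjusted p = 0.0374 each) and not by rho (0.143 and 0.0757). Without the 2 arrays farthest from the median of the first gene, r was 0.412 and 0.417, within 12 weeks 0.198 and 0.171, and within 1 week 0.738 and 0.63. Grhl3 and Ehf had the lowest value, r = -0.344 and rho = -0.269 (permutation adjusted p = 0.128 and 0.188), at -0.408 without 2 arrays, -0.593 within 12 weeks and 0.035 within 1 week. With the epithelial panel mean regressed out, the median r of the 28 pairs was 0.08. That of Gata3 and Klf5 was then 0.565 and that of Elf3 and Sox15 was -0.054.

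**Figure D5:**
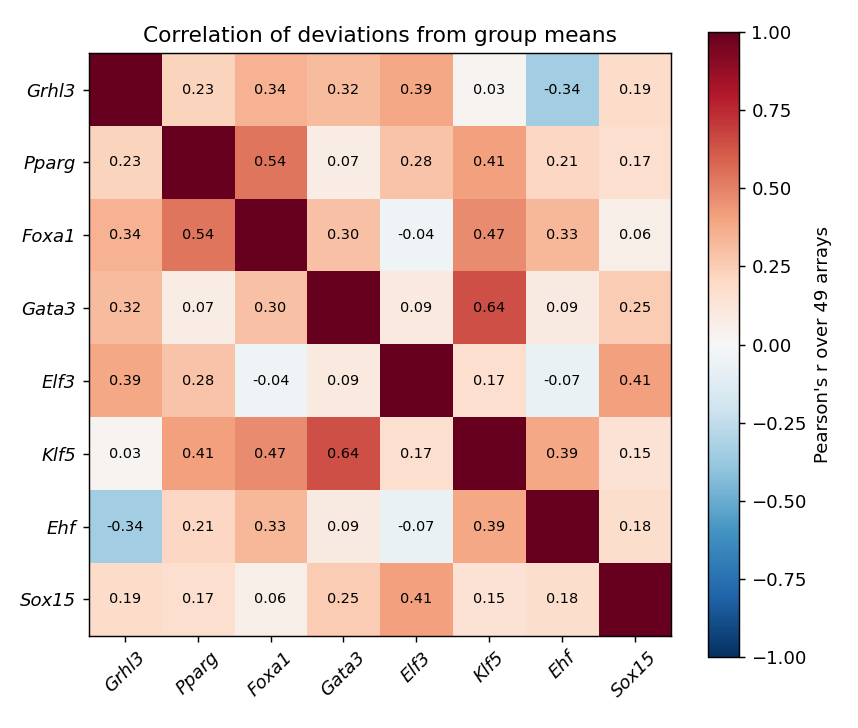
Pearson's r between members over the deviations of 49 arrays from their group means, with members in rows and columns and colour from -1 (blue) to 1 (red). Gata3 with Klf5 has the highest value, 0.64, Pparg with Foxa1 has 0.54, and Grhl3 with Ehf has the lowest, -0.34.

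The members were also set against the tissue's markers from mouse to mouse, in 136 relations of 8 members with 17 list means, adjusted together. Whether members differ from each other in these relations was not tested. By both r and rho, 4 of 8 members passed with the epithelial panel, all positive. This was not particular to that panel. Positive relations also passed for 4 members with the grainyhead target genes, 3 with the further regulators and 2 with the superficial urothelium markers. Elf3 followed the epithelial panel (r = 0.719, rho = 0.679, permutation adjusted p = 0.00136 and 0.000453) and the superficial urothelium markers (r = 0.687, rho = 0.677, permutation adjusted p = 0.00136 and 0.000453). Without the 2 arrays farthest from the Elf3 median these were 0.704 and 0.653. They were 0.774 and 0.702 within 12 weeks, and 0.637 and 0.688 within 1 week. Sox15 followed the epithelial panel as well (r = 0.615, rho = 0.659, permutation adjusted p = 0.00181 and 0.000453), at 0.661 without 2 arrays, 0.576 within 12 weeks and 0.663 within 1 week. Gata3 (r = 0.481, rho = 0.451, permutation adjusted p = 0.0152 and 0.028) and Grhl3 (r = 0.472, rho = 0.446, permutation adjusted p = 0.0241 and 0.0286) also passed. Without 2 arrays they were at 0.385 and 0.334, within 12 weeks at 0.341 and 0.521, and within 1 week at 0.647 and 0.404. For Ehf the relation to that panel was r = 0.043 and rho = 0.103 (permutation adjusted p = 0.862 and 0.677), and 0.211 without 2 arrays, -0.221 within 12 weeks and 0.44 within 1 week.

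Pparg went against the smooth muscle markers (r = -0.507, rho = -0.495, permutation adjusted p = 0.00861 and 0.0164), at -0.487 without 2 arrays, -0.396 within 12 weeks and -0.606 within 1 week. Elf3 did so too (r = -0.42, rho = -0.42, permutation adjusted p = 0.0314 and 0.0422), at -0.423 without 2 arrays, -0.57 within 12 weeks and -0.233 within 1 week. Smooth muscle was not alone in this. Negative relations also passed by both measures for 3 of 8 members with fibroblast markers and 2 each with macrophage and endothelial markers. With skeletal muscle markers 1 passed, Foxa1 (r = -0.512, rho = -0.456, permutation adjusted p = 0.00861 and 0.028). That was at -0.485 without 2 arrays, -0.227 within 12 weeks and -0.738 within 1 week. Pparg was among those with fibroblast markers (r = -0.442, rho = -0.409, permutation adjusted p = 0.0196 and 0.0462). It was at -0.449 without 2 arrays, -0.49 within 12 weeks and -0.405 within 1 week. Since Pparg is also an adipocyte gene and Gata3 also a T cell gene, their relation to markers of those cells was read too. It was r = 0.029 and rho = 0.052 for Pparg with adipocyte markers (permutation adjusted p = 0.905 and 0.833), at 0.079 without 2 arrays, 0.084 within 12 weeks and -0.025 within 1 week. For Gata3 with T cell markers it was r = 0.049 and rho = -0.014 (permutation adjusted p = 0.841 and 0.943), at -0.002 without 2 arrays, 0.104 within 12 weeks and -0.035 within 1 week.

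Among all other tested genes, those whose deviations were most like the mean of the 8 standardised members over the 49 arrays were Erbb3, a receptor tyrosine kinase (r = 0.802), Osbpl2, a lipid transfer protein (r = 0.79), and Shh (r = 0.768). Mfsd4a, Tns4, Slc35g1, Sh3gl2, Arg2, 1600012H06Rik and Gjb6 followed with r from 0.718 to 0.74. These were chosen as the highest values, so no test is given. Gene by gene, the closest were Cldn4 (r = 0.816) and Cldn7 (r = 0.802), both tight junction claudins, for Elf3, and the adhesion molecule Alcam (r = 0.837) for Ehf. Sh3gl2 came first for Foxa1 (r = 0.836), the connexin gene Gjb6 for Pparg (r = 0.775), Rnf144b for Klf5 (r = 0.756), Sema4g for Gata3 (r = 0.75), the homeobox factor Msx2 for Grhl3 (r = 0.709) and the tetraspanin Cd82 for Sox15 (r = 0.707). After these came Sowahb (r = 0.694) and Fosl2 (r = 0.682) for Grhl3, Igsf5 (r = 0.766) and Ocln (r = 0.754) for Pparg, Tmem64 (r = 0.82) and Hoxa9 (r = 0.819) for Foxa1, and Gpa33 (r = 0.725) and Prom2 (r = 0.722) for Gata3. Ppdpf was the third for Elf3 (r = 0.777), Esrp1 (r = 0.7) and Erbb3 (r = 0.697) followed for Klf5, Far1 (r = 0.83) and Mecom (r = 0.793) for Ehf, and Mindy1 (r = 0.638) and Cyp2s1 (r = 0.635) for Sox15.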

How the data were processed

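Per the labels' protocols, total RNA of single bladders kept in RNA later was taken up in Trizol, cleaned by a Qiagen method and biotinylated. The authors deposited 1 linear intensity per probe set, made per the submitters' processing notes with GCOS 1.0 at settings not given in the sources used here. A check showed scaling, since the 2% trimmed mean was 500.003 to 500.004 on every array. Of 45101 probe sets, 34958 had 1 gene in the platform annotation.

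Signals were taken as log2(value + 16), and the fold of a dim gene is understated on this scale. Genes above the 40th percentile in at least 4 arrays were kept. Each harvest (25 arrays at 12 weeks, 24 at 1 week) was fitted alone with limma 3.58.1 (lmFit, eBayes with a trend) in R 4.3.3. Contrasts between harvests used all 49 arrays. The number of arrays limits the precision. Replicates are different mice. Correlations used 100000 permutations within groups. The steps were tested on simulated data. Software further comprised data.table (1.17.8), Python (3.11.15) and matplotlib (3.10.9). Sequences are from RefSeq.

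The members and lists were chosen with earlier results of these data known. Named list genes are those past the threshold in a contrast described, at most 4 by smallest p, besides Krt20, and similar genes are the 10 closest to the members' mean and the 3 closest of each member. Alternatives tried were a log2 offset of 1 or 64, quantile normalization, a filter at the 60th percentile or none, array weights, 1 fit of all arrays, RNA integrity, poly-A spikes, hybridization spikes, the epithelial panel or smooth muscle markers as covariates, a replicate block, the median of a gene's probe sets, eBayes without a trend, other dose scales and leaving out each array. The RNA integrity fits left out the 2 arrays without a number. Leaving out the 2 arrays that stood apart was chosen after seeing the data. The main fits did not pair mice by replicate number. Of 39 same-numbered pairs, 6 had deviations correlated over 0.1 (range -0.09 to 0.39). No differently numbered pairs are given beside them, so these values cannot exclude a pairing.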

Additional observations from a re-analysis of the deposited data

Results flagged for a closer look

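Of 80 member-by-group sets of values, 7 held an array far from the rest of its group by Dixon's criterion, which chance meets in about 1 of 20 sets. Ehf in the 12-week water group had replicate 2 at 8.83, with the next array at 9.62, and in the 0.5 ppm group of 12 weeks replicate 1 at 10.36, next to 9.65. That last array was also the one of lowest correlation with its group. Elf3 was at 11.72 in replicate 5 of 50 ppm at 12 weeks, next to 11.22, and at 10.54 in replicate 3 of 10 ppm at 1 week, next to 11. Grhl3 was at 11.81 in replicate 4 of 50 ppm at 1 week, next to 11.48, and at 11.69 in replicate 1 of 2 ppm at 1 week, next to 11.33. Pparg was at 11.07 in replicate 5 of 10 ppm at 1 week, next to 11.27.

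The test of the difference itself, the dose effect at 12 weeks minus that at 1 week, singled out 5 results. At 0.5 ppm these were Sox15 with -0.9 (limma adjusted p = 0.00269) and Foxa1 with -0.65 (adjusted p = 0.0109). At 50 ppm they were Sox15 with -0.62 (adjusted p = 0.0245), Grhl3 with -0.58 (adjusted p = 0.0159) and Ehf with 0.74 (adjusted p = 0.0349).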

How the results depend on the processing

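No called result of a member reversed under any alternative or without any array. The number of members called against water at 12 weeks, 2 of 32 tests, was 1 without a filter, 4 with the filter at the 60th percentile, 5 with array weights, 4 with all 49 arrays in 1 fit, 1 with the epithelial panel as a covariate, 1 with the median of a gene's probe sets, 1 with eBayes without a trend and 0 with RNA integrity, poly-A spikes or smooth muscle as a covariate, and ran from 0 to 5 without single arrays. Of the 25 omissions 17 moved it by over 1.5 times: it was 5 without water replicate 1, 4 without replicate 4 of 10 ppm, 0 without water replicate 3 or 5 or replicate 5 of 0.5 ppm, and 1 without water replicate 2, replicate 4 of 0.5 ppm, replicates 2, 3 and 5 of 2 ppm, 1, 3 and 5 of 10 ppm or 1 to 4 of 50 ppm. With the epithelial panel as a covariate, the 1 call against water at 12 weeks was Ehf at 10 ppm (0.63, limma adjusted p = 0.0473). Both Sox15 calls were lost there. Against water at 1 week, 0 became 2 with array weights and 2 with RNA integrity, and 0 to 1 without single arrays. The F test gave 1 with array weights in place of 0 at 1 week (0 to 0 without single arrays) and 1 with smooth muscle in place of 3 at 12 weeks (2 to 3). Called slopes at 12 weeks, 1, became 2 with array weights, the epithelial panel, smooth muscle, log2(dose + 0.5), slopes without water, or without the 2 arrays that stood apart, and 0 with poly-A or hybridization spikes (1 to 2 without single arrays). At 1 week this count was 0 throughout.

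For the water groups, 5 called members became 2 with smooth muscle and up to 7 over the alternatives (4 to 5 without single arrays). Array weights added Pparg and Foxa1 there. Over all doses 7 became 4 with RNA integrity (6 to 7). Differences between harvests in dose effects, 5, were 8 with array weights, 2 with poly-A spikes, 1 with smooth muscle and 0 with the epithelial panel (3 to 5, the 3 without replicate 4 of 50 ppm at 12 weeks or replicate 2 of 50 ppm at 1 week). The replicate block gave 3 of 32 against water at 12 weeks, adding Ehf at 50 ppm (adjusted p = 0.0353), and 4 in water between harvests, without Elf3 (adjusted p = 0.0552); it changed no other count. The cause of these changes was not tested. Over all genes, 594 calls at 50 ppm and 12 weeks ran from 1 to 1357 over alternatives and from 47 to 1617 without single arrays, 77 at 0.5 ppm from 0 to 534, 770 slopes from 0 to 1892, and 1954 between the water groups from 371 to 3218. The number of mice limits what single doses can show.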

Other observations

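Target genes of PPARG known from adipocytes and other cells, 16 tested of 20 listed, had 3 called members at 50 ppm and 12 weeks, where 4.06% of all genes were called. Pparg itself was called in none of the comparisons of the main limma fits. With array weights it was called between the water groups (0.35, limma adjusted p = 0.035). The same weights called its difference between harvests in the 0.5 ppm effect (-0.53, limma adjusted p = 0.0366). At that dose and harvest, Klf15, a Krüppel-like factor (1.37 ± 0.36, limma adjusted p = 0.0346), and Cidea, a lipid droplet protein (1.40 ± 0.40, adjusted p = 0.0457), were higher than in water, and the glycerol channel Aqp7 was lower (-1.20 ± 0.34, adjusted p = 0.0436). Cidea was also higher at 0.5 ppm (1.80 ± 0.40, adjusted p = 0.04). In water it was lower at 12 weeks than at 1 week (-2.005 ± 0.33, adjusted p = 4.57e-05). At 10 ppm and 12 weeks, adipocyte markers had negative differences from water in 7 of 7 cases, with a median of -0.71 and 0 called by limma (0 at an unadjusted p under 0.05). Of the squamous markers, Cdsn, a protein of cornified cell junctions, was lower at 50 ppm and 12 weeks (-1.38 ± 0.34, adjusted p = 0.0261).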
